A study of Rattus norvegicus with 18 samples.

Results

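The respiratory chain of rat kidney was followed through a time course of ureteral obstruction, as the messenger RNAs of its nuclear and mitochondrially encoded genes. Members were the genes whose symbols name subunits, isoforms or closely named assembly factors of complexes I to V, together with the protein-coding genes of the mitochondrial chromosome, 1 row per symbol. The rule matched 108 rows, and after 5 rows that repeated a symbol were left out it gave 103 genes of the 30957 in the table. Of these, 90 are nuclear and 13 are mitochondrially encoded. Complex I has 38 nuclear and 7 mitochondrial members, complex II has 4 nuclear, complex III 8 and 1, complex IV 19 and 3, and complex V 17 and 2. The remaining 4 nuclear symbols (Atp5hl1, Cox6c1, Ndufb4l1 and Ndufv3-ps1) are copies or pseudogenes.

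In every group the left ureter of rats was tied, a model of obstructive nephropathy called unilateral ureteral obstruction, and renal parenchyma was taken after a set time. Poly(A) RNA was sequenced from 18 libraries, with 5 for each of 1, 3 and 7 days and 3 labelled 14 days. Strain, age and further treatments are not in the labels, which give 1 batch name for all libraries. The sham group named in the design was not analysed here, so each comparison is between labelled durations. Whether each library came from its own animal is not in the labels, and the p-values therefore cover the spread of these libraries alone, which can be partly technical.

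The respiratory chain sits in the inner mitochondrial membrane. Complexes I and II pass electrons from NADH and succinate to ubiquinone, complex III passes them to cytochrome c, complex IV passes them to oxygen, and complex V is the ATP synthase driven by the resulting proton gradient. Complexes I, III, IV and V combine subunits made from the mitochondrial genome with subunits made from nuclear genes and imported, while complex II is wholly nuclear encoded. Proximal tubule and thick ascending limb cells of the kidney depend on this chain to drive sodium transport.

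Nuclear genes of the chain are classically described as targets of the transcription factors NRF1 and GABPA, the latter of the ETS family, so the promoters of the members were searched for the core letters of both. RefSeq promoters (GRCr8) matched 76 of the 90 nuclear members by symbol or older symbol, 75 of them not copies, and the 250 bases before the first listed start were searched on both strands. The ETS-type letters CCGGAAG were present in 20 of 75 members (26.7%) and in 7.74% of all 27457 promoters of the same length. The NRF1-type letters, GCGCA and GCGC parted by 1 base of any kind, were present in 11 of 75 members (14.7%) and in 4.17% of all promoters. At least 1 of them was present in 30 of 75 members, and Atp5i held both. The ERRA-type letters TNAAGGTCA were present in 1 member (1.33%), against 1.00% of all promoters. A match describes letters in a window and not a site. The 120 bases before the start are shown for 1 member of each complex that holds a match, 5′ to 3′ on the strand of the gene, with the NRF1-type or ETS-type letters of either strand in capitals. They lie at chr1:210573699-210573818 (minus strand, Ndufs8), chr1:30764433-30764552 (plus, Sdha), chr8:118468103-118468222 (plus, Uqcrc1), chr1:213833624-213833743 (minus, Cox8a) and chr18:73567417-73567536 (plus, Atp5a1, now named Atp5f1a) of GRCr8.
Ndufs8: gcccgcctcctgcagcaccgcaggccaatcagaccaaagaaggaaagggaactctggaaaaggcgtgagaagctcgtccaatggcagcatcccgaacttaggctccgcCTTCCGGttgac
Sdha: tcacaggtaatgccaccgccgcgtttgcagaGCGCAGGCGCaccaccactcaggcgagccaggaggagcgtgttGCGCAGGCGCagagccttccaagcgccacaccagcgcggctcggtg
Uqcrc1: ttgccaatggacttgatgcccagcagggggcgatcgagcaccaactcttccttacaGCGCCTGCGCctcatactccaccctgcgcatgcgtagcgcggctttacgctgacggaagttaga
Cox8a: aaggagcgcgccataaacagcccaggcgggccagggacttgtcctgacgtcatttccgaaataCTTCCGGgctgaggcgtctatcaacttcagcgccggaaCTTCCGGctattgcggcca
Atp5a1: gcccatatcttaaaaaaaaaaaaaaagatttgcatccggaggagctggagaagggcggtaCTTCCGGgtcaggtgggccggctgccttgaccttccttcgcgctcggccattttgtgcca
In these windows Sdha holds the NRF1-type letters at 2 places and Uqcrc1 at 1. Cox8a holds the ETS-type letters at 2 places, and Ndufs8 and Atp5a1 at 1 each, all on the reverse strand.

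Library totals ran from 5488540 to 12049915 counts, and 96 of the 103 members passed the filter on low counts, 83 nuclear and all 13 mitochondrial. The members not tested were Ndufa1, Cox7b2, Cox8c and Ndufb4l1 with no count, Cox6c1 with 1, Cox8b with 2 and Atp5f1 with 43 counts in all. The libraries labelled 14 days stood apart from the other 15 and from each other. Of 18 proximal tubule markers 17 were in the table and none was at 0 throughout, and their summed FPKM (fragments per kilobase of gene, scaled to library size) was 377 and 233 in replicates 1 and 3 of those labelled 14 days and 4957 in replicate 2. The 9 loop and distal tubule markers found of 10 summed to 509, 2958 and 66.2 in the 3 libraries and to 305 to 875 elsewhere. The proximal tubule sum was 600 to 1616 at 1 day, 1021 to 5032 at 3 days and 936 to 3389 at 7 days. The 9 collecting duct markers summed to 1520, 395 and 1311 in the 3 libraries labelled 14 days and to 205 to 935 elsewhere, and the 9 adipocyte markers to 297, 62.4 and 2639 against 23.0 to 188. A sum can be carried by its most abundant markers. Between 14 and 7 days, 4 collecting duct markers had positive and 5 negative log2 fold changes, and proximal tubule markers 8 and 9. Against 1 day, 7 collecting duct markers were positive and 2 negative, and proximal tubule markers 10 and 7. The 11 leukocyte markers summed to 70.1, 120 and 230 in the libraries labelled 14 days, below every other library (237 to 3269). Day 1 replicate 5 held the 935 and the 188, and had the lowest proximal tubule sum among the other 15 libraries. In bulk tissue, fewer cells of a type and less RNA per cell cannot be told apart.

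The mitochondrially encoded messages outweighed the nuclear ones in every library. The 13 mitochondrial members took a mean of 9.72 ± 2.23% of counts at 1 day, 9.22 ± 2.38% at 3 days and 7.95 ± 0.897% at 7 days (SD over 5 libraries per group), and 23.7%, 27.1% and 14.2% in the 3 libraries labelled 14 days. The 3 last values were all above the highest of the other 15 libraries, 13.4%, in day 1 replicate 2. The 90 nuclear members together took 1.03 ± 0.134%, 1.19 ± 0.121% and 1.22 ± 0.0717% of counts at 1, 3 and 7 days (SD, n = 5). They took 0.71%, 1.43% and 0.699% in the libraries labelled 14 days, so that replicate 2 held the highest share of all 18 libraries and replicates 1 and 3 the lowest 2. The 95% Wilson intervals of these shares, which cover counting error only, were at most 0.0367 percentage points to either side for mitochondrial and 0.00980 for nuclear members.

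The ratio of mitochondrial to nuclear member counts differed between the labelled durations. It was 8.34, 11.0, 10.0, 8.66 and 8.77 at 1 day. At 3 days it was 6.83, 7.30, 9.73, 6.88 and 7.55, and at 7 days 6.13, 6.27, 6.56, 6.08 and 7.60. In the libraries labelled 14 days it was 33.4, 19.0 and 20.4. The values at 1 day lay above all those at 7 days, those at 3 days overlapped with both, and the libraries labelled 14 days lay above every other library. These ratios are given as a description with no test. Within complexes the 7-day ratio lay below every 1-day value for complexes I (8.47 to 12.9 at 1 day, 5.57 to 7.56 at 7 days), IV (28.6 to 32.6 against 20.2 to 25.3) and V (1.27 to 3.78 against 0.793 to 1.19). For complex III, whose single mitochondrial subunit is cytochrome b, the ranges overlapped (7.40 to 12.0 against 6.48 to 8.74).

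**Figure D1:**
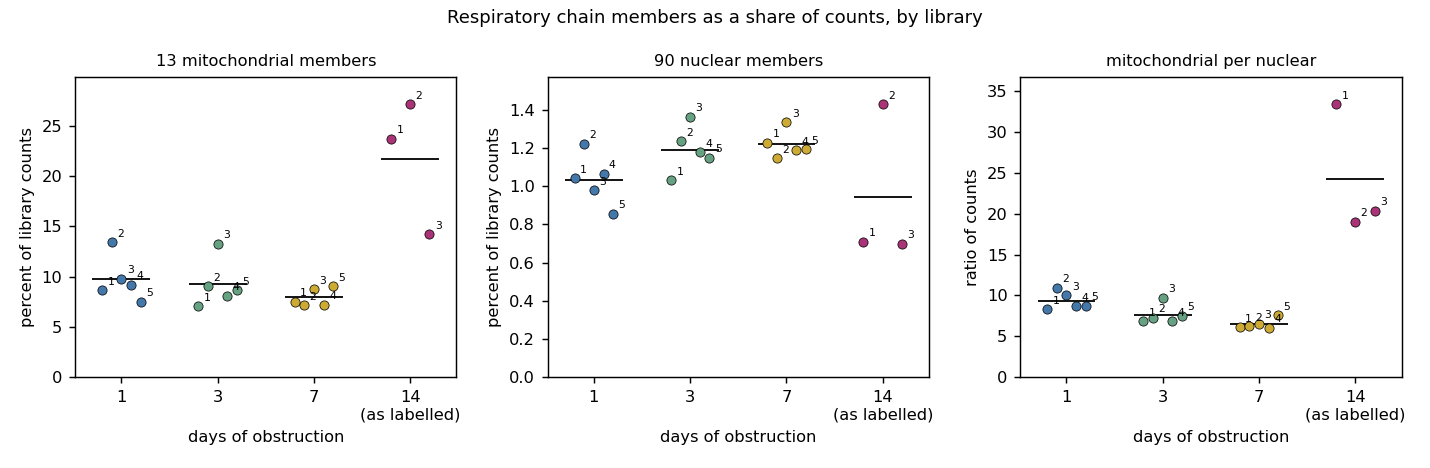
Percent of library counts taken by the 13 mitochondrial members (left) and the 90 nuclear members (middle), and the ratio of mitochondrial to nuclear member counts (right), by labelled days of obstruction. Each point is 1 library with its replicate number, and lines are group means. The ratio was 8.34 to 11.0 at 1 day, 6.08 to 7.60 at 7 days and 19.0 to 33.4 in the libraries labelled 14 days.

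Levels per length differed widely between members and complexes. At 7 days the group means of nuclear members had medians of 81.8 FPKM for complex I, 164 for complex II, 170 for complex III, 231 for complex IV and 220 for complex V, with Atp5b, the catalytic beta subunit of ATP synthase, highest at 1104 ± 124 FPKM (SD, n = 5). These medians compare sets of unlike make-up, since that of complex I includes assembly factors and that of complex IV includes isoforms with few or no counts. The mitochondrial members ranged at 7 days from 552 ± 122 FPKM for Mt-nd6, the only one on the opposite strand, to 16652 ± 1230 for Mt-co1, the catalytic subunit of complex IV. Mt-co1 per Cox4i1, the nuclear subunit IV of the same complex, was 39.8 to 46.2 on the FPKM scale at 1 day, 33.4 to 48.2 at 3 days and 22.8 to 27.9 at 7 days. In the libraries labelled 14 days it was 162, 120 and 78.2, so that 7-day libraries were lowest and those labelled 14 days highest, with no overlap to the rest. Among nuclear member counts, complex V took 39.4 to 41.0% at 1 day and 41.6 to 44.8% at 7 days, without overlap, and complex I took 21.5 to 23.0% and 20.9 to 22.5%.

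The first comparison asks how the chain differed between 3 and 1 day. No member passed the threshold (0 of 96, against 2.27% of the 14511 genes tested, edgeR quasi-likelihood test, Benjamini-Hochberg adjusted p under 0.05). DESeq2 also called none (0 of 96, against 6.55% of genes). At an unadjusted p under 0.05 there were 3, Atp5s, Cox6a2 and Uqcrh, against 18.1% of all genes. The median log2 fold change was 0.14 over 83 nuclear and -0.08 over 13 mitochondrial members, and -0.01 over all genes. The mitochondrial sign rested on single libraries, since the median was 0.11 without day 1 replicate 2, with 12 of 13 above 0, and -0.31 without day 3 replicate 3. It was -0.18 without day 1 replicate 5 and -0.01 without day 3 replicate 1 or 4. The nuclear median was 0.07 without day 1 replicate 5 or without day 3 replicate 3, and 0.24 without day 1 replicate 2. Nuclear values above 0 numbered 68 of 83, including 15 of 16 of complex V and all 4 of complex II. FPKM at 3 days lay wholly above 1 day for 5 members, Atp5a1, Cyc1, Ndufaf4, Ndufs4 and Sdhd (4.98% of all genes). Uqcrh, the hinge protein of complex III, was at 117, 152, 123, 122 and 117 FPKM at 1 day and at 136, 177, 196, 178 and 166 at 3 days, with overlap (log2 fold change 0.42 ± 0.18 (SE), adjusted p = 0.237, edgeR). With the libraries labelled 14 days left out of the fit, Sdhd, Uqcrh and Ndufs3 passed, all higher (3 of 96, against 10.5% of genes), and none of the 3 passed when day 1 replicate 5 was left out as well.

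Between 7 and 3 days, again no member passed (0 of 96, against 1.05% of genes, edgeR). DESeq2 called 1 (against 6.26% of genes). The 3 at an unadjusted p under 0.05, against 18.8% of genes, were Cox6b2, Cox7a2l and Mt-nd4l. The median log2 fold change was -0.01 for nuclear and -0.30 for mitochondrial members, with 12 of 13 mitochondrial values below 0. Without day 3 replicate 3 the mitochondrial median was -0.08 and the nuclear 0.06. Cox6b2, an isoform of a complex IV subunit best known from testis, had a log2 fold change of 1.20 ± 0.31 (SE) and an adjusted p of 0.0668 by edgeR. It passed in a fit of the 2 groups alone (4.76% of genes called higher) and without the libraries labelled 14 days (4.75%). FPKM at 7 days lay wholly above 3 days for Cox6b2 and Cox7a2l (6.99% of genes).

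Between 7 and 1 day, 3 of 96 members passed (3.12%, against 25.6% of genes), Cox7a2l and Cox6b2 higher and Mt-nd2 lower. Cox7a2l, which promotes the joining of complex III with complex IV into supercomplexes (chromosome 6, 6695827 to 6709783, minus strand, as in the deposited table), was at 69.5, 72.6, 79.5, 68.9 and 76.8 FPKM at 1 day. At 3 days it was at 67.5, 85.1, 78.8, 93.3 and 87.7, and at 7 days at 95.0, 97.4, 98.3, 112 and 108. Every 7-day library was above every 1-day library. Cox7a2l rose by 0.39 ± 0.10 (SE) on the log2 scale (adjusted p = 0.00741, edgeR). It passed under all 21 alternatives, which hold the fit without day 1 replicate 5 in duplicate (log2 fold changes 0.37 to 0.47). In the libraries labelled 14 days it was at 61.4, 55.4 and 67.3 FPKM, below every 7-day library (-0.42 ± 0.11, adjusted p = 0.00888, lost when only those 2 groups were fitted or only replicate 2 was kept).

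Cox6b2 (chromosome 1, 72661211 to 72662434, plus strand) followed the same course at a far lower level. It was at 1.77, 1.09, 2.72, 2.33 and 3.74 FPKM at 1 day and at 5.71, 7.13, 6.65, 8.90 and 5.77 at 7 days, which did not overlap. Behind these lie 48 counts over the 5 libraries at 1 day and 113 at 7 days. Cox6b2 rose by 1.43 ± 0.31 (SE, adjusted p = 0.0037, edgeR), again under all 21 alternatives. In the libraries labelled 14 days it was at 2.00, 0.757 and 4.29 FPKM, below each 7-day value (-1.26 ± 0.38, adjusted p = 0.0168, lost without replicate 1 or 2 of those labelled 14 days and in the fit of 2 groups).

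Mt-nd2 encodes a core membrane subunit of complex I (MT, 3904 to 4942). It was at 5799, 10592, 5801, 5548 and 5815 FPKM at 1 day and at 4194, 4156, 4591, 3869 and 5297 at 7 days. Every 7-day library was below every 1-day library, and day 1 replicate 2 stood well above the rest. Mt-nd2 fell by 0.69 ± 0.24 (SE) on the log2 scale (adjusted p = 0.0437, edgeR). The call held in 10 of 21 alternatives (adjusted p 0.0133 to 0.149), both counting the fit without day 1 replicate 5 in duplicate. It was lost without day 1 replicate 1, 2 or 3, without day 7 replicate 1, 2, 3 or 4, with no filter, with the replicate block and in both FPKM fits, always below 0. Mt-nd4l, a small complex I subunit whose gene overlaps the start of Mt-nd4, was at 3197 to 5694 FPKM at 1 day and 2198 to 2838 at 7 days, also without overlap (-0.68 ± 0.26, adjusted p = 0.0624). Of the 13 mitochondrial members, 12 had a negative fold change, with a median of -0.35 (-0.18 without day 1 replicate 2), and Mt-co2 alone was positive (0.15 ± 0.28, adjusted p = 0.726).

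Between 7 and 1 day, 81 of the 83 nuclear members did not pass, the exceptions being Cox7a2l and Cox6b2. The nuclear median log2 fold change was 0.18 (0.01 over all genes), and 64 of 83 were above 0. Without day 1 replicate 5 the median was 0.10 with 56 above 0, and without day 1 replicate 2 it was 0.29. By complex, 28 of 37 were above 0 in complex I, 2 of 4 in complex II, 5 of 8 in complex III, 12 of 16 in complex IV and 15 of 16 in complex V. FPKM at 7 days lay wholly above 1 day for 14 nuclear members (16.9% of 83, a share close to the 14.3% of all genes) and wholly below for none (6.90% of genes). They included the complex I core subunits Ndufs3, Ndufs7, Ndufs8 and Ndufv2, the heme-bearing cytochrome c1 of complex III (Cyc1, 163 ± 14.4 to 202 ± 15.3 FPKM) and Uqcrh (126 ± 14.8 to 188 ± 10.5).

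**Figure D2:**
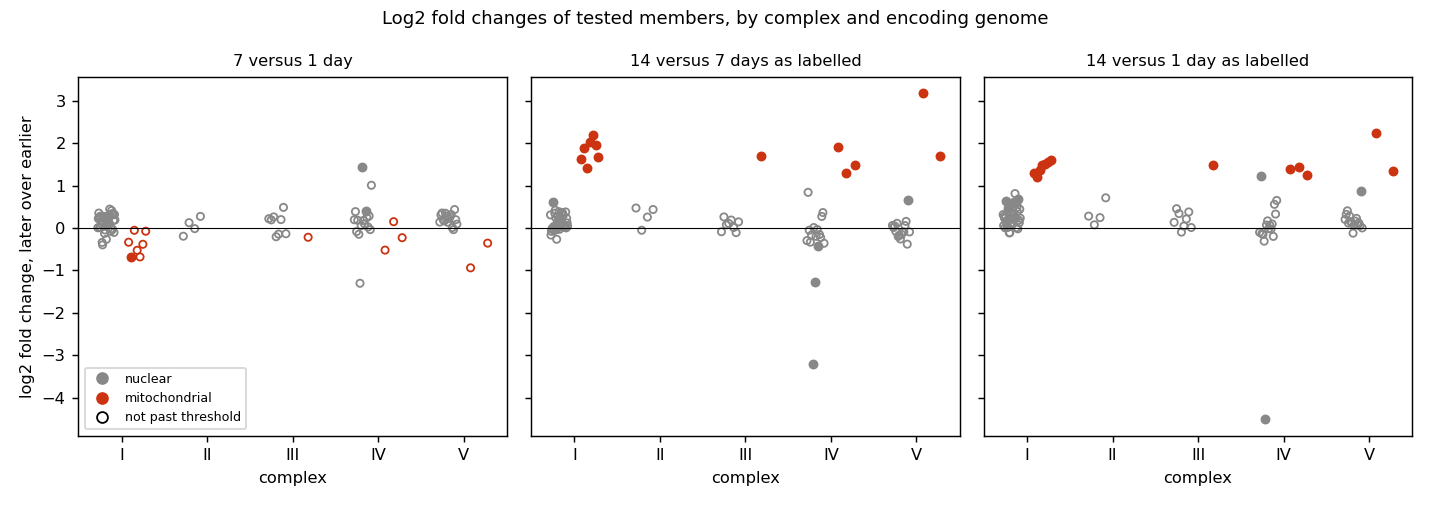
Log2 fold changes of the tested members by complex, for 7 versus 1 day, 14 versus 7 days and 14 versus 1 day as labelled. Grey points are nuclear and red points mitochondrial members, and filled points passed an adjusted p under 0.05 (edgeR). At 7 days 12 of 13 red points lie below 0, and in both comparisons with 14 days all 13 lie above 0 and are filled.

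The calls between 7 and 1 day depended on which libraries entered the fit. Without the libraries labelled 14 days, 14 of 96 members passed (against 38.2% of genes), 11 nuclear higher, Cox6a2 lower, and Mt-nd2 and Mt-nd4l lower. The nuclear members higher were Ndufs3, Ndufs4, Ndufs7, Ndufv2, Ndufc2 and Ndufa13 of complex I, Sdhd, Uqcrh, Cox7a2l, Cox6b2 and Atp5o, with log2 fold changes of 0.26 to 1.41. Ndufs3, a core subunit of the complex I arm that reaches into the matrix, had 0.41 ± 0.13 (SE, adjusted p = 0.0203, edgeR). With day 1 replicate 5 left out as well, a setting chosen after seeing the data, 15 passed (against 41.5% of genes), 7 nuclear members higher, 3 nuclear and 5 mitochondrial lower. The 5 mitochondrial members were Mt-nd2, Mt-nd4, Mt-nd4l, Mt-co1 and Mt-atp6, and Uqcrc1, a subunit of complex III, was among the lower nuclear members (-0.29 ± 0.08, adjusted p = 0.0107). Leukocyte markers (11 of 11 in the table) summed to 237 to 558 FPKM at 1 day and 672 to 3269 at 7 days, and the 9 fibroblast markers, 1 of them at 0 throughout, to 144 to 228 and 483 to 739. The 11 hypoxia response genes found of 12 summed to 2038 to 2557 FPKM at 1 day and 837 to 1274 at 7 days, and proximal tubule markers overlapped. Of the 11 hypoxia response genes, 7 had a negative and 4 a positive log2 fold change, so the fall was not shared by all. The part of these lists in the calls above was not tested.

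Between 14 and 7 days all 13 mitochondrial members rose, within 18 of 96 members called (18.8%, against 38.3% of genes), and 21.4% of genes were called higher. Their median log2 fold change was 1.71, from 1.29 for Mt-co2 to 3.18 for Mt-atp6, against 0.03 for nuclear members and 0.07 for all genes. Mt-co1 was at 16198, 15521, 17034, 15899 and 18607 FPKM at 7 days and at 57936, 59924 and 27342 in the libraries labelled 14 days. These did not overlap, and replicate 3 was the lowest of the 3 labelled 14 days. Mt-co1 rose by 1.92 ± 0.32 (SE, adjusted p = 0.000332, edgeR). FPKM of 11 of the 13 lay wholly above 7 days (2.93% of genes), the exceptions being Mt-co2 and Mt-nd6. The leukocyte marker sum separated the same libraries in the other direction, with 7 of 11 markers called lower, and its part in the rise was not tested.

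By complex, all 7 mitochondrial members of complex I rose, from 1.41 ± 0.33 for Mt-nd3 to 2.18 ± 0.29 for Mt-nd4l. The cytochrome b gene Mt-cytb rose by 1.70 ± 0.31, from 7732 ± 898 FPKM to 19569 ± 5503 (SD, n = 5 and 3). In complex IV, Mt-cox3 rose by 1.49 ± 0.30 and Mt-co2 by 1.29 ± 0.31, the latter not passing in either FPKM fit. In complex V, Mt-atp8 rose by 1.71 ± 0.27. Of these 13 calls, 12 held in all 17 alternatives, and Mt-co2 in 15.

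Nuclear members showed no shared direction between 14 and 7 days when all libraries were fitted, with 49 of 83 above 0. By complex, 28 of 37 were above 0 in complex I, 3 of 4 in complex II and 6 of 8 in complex III. In complex IV 4 of 16 were above 0, and in complex V 7 of 16. FPKM lay wholly below 7 days for 10 nuclear members, 6 of them of complex IV, and wholly above for none (2.93% of genes). The share of all genes wholly below is not given here, so the 10 and the 6 are descriptions alone. Of 83, 2 passed higher (Ndufa7 and Atp5s) and 3 lower (Cox7a2l, Cox6b2 and Cox6a2, against 16.9% of genes called lower). Ndufa7, an accessory subunit of complex I, was at 85.9, 90.0, 86.8, 93.6 and 105 FPKM at 7 days and at 101, 111 and 126 in those labelled 14 days. It rose by 0.61 ± 0.16 (SE, adjusted p = 0.00579), and the groups overlapped in FPKM. Atp5s, also named Dmac2l, rose by 0.67 ± 0.20 (adjusted p = 0.0148). Neither passed in the FPKM fits, and Atp5s also not without replicate 2 labelled 14 days. Cox6a2, the muscle isoform of a complex IV subunit, had 26 counts over the 7-day libraries and 1 over those labelled 14 days, a ratio of 0.0733 per total count (95% interval 0.00179 to 0.446, counting error only). Its call was lost without day 7 replicate 1, without replicate 1 or 2 of those labelled 14 days, and with only replicate 2 kept.

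The sign for nuclear members turned when 1 library was left out, and also in some fits of all libraries. Ndufs1, the largest core subunit of complex I, was at 39.0, 118 and 49.5 FPKM in the libraries labelled 14 days, and at 64.5 to 84.8 at 7 days. Sdha, the flavoprotein of complex II, was at 95.4, 248 and 92.7, and at 127 to 159 at 7 days. Uqcrc1 was at 89.7, 187 and 92.3, and at 129 to 166 at 7 days. For all 3, replicate 2 labelled 14 days was above every 7-day library and replicates 1 and 3 were below every one. Atp5b had the same order, at 639, 1332 and 517 against 985 to 1293. Cox4i1 differed in that all 3 libraries, at 358, 501 and 350 FPKM, were below the 580 to 698 at 7 days. The same held for 6 nuclear members of complex IV in all, Cox4i1 included, a count with no share of all genes beside it.

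Without replicate 2 labelled 14 days, 44 nuclear members passed as lower and 1, Ndufa7, as higher (against 24.0% and 26.2% of genes), and the nuclear median became -0.50 while that of all genes was 0.01. The 44 were 15 of complex I, all 4 of complex II, 5 of complex III, 10 of complex IV and 10 of complex V. They included Atp5o, in the stalk of ATP synthase (-1.23 ± 0.21 (SE), adjusted p = 0.000222, edgeR), the Rieske iron-sulfur protein Uqcrfs1 of complex III (-0.98 ± 0.20), Sdhb, the iron-sulfur subunit of complex II (-0.86 ± 0.17), Cox5b of complex IV (-0.86 ± 0.23) and Ndufa9 of complex I (-0.78 ± 0.16). The sign changed for 42 of 83 nuclear members. All 13 mitochondrial members still passed as higher, with a median of 1.44. With only replicate 2 kept of those labelled 14 days, a fit in which that lone library is assumed to vary like the other groups, 49 nuclear members passed as higher and 1 as lower (against 16.4% and 16.1% of genes).

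The nuclear direction also differed in the fit of FPKM, which changes both the scaling and the model. On log2(FPKM+1) the nuclear median between 14 and 7 days was -0.40 (6 of 83 above 0), and that of all genes was also below 0, at -0.26. Limma called 28 of the 83 lower, about the same share as the 33.7% of all genes called lower. With other scalings of the counts alone the nuclear median was 0.05 (RLE size factors) and 0.02 (mitochondrial genome left out of library sizes). With the replicate number as a block it was -0.10, with 32 of 83 above 0. All 13 mitochondrial values were above 0 in each of these fits, and 12 of 13 passed in the FPKM fit (6.57% of genes called higher). Proximal tubule and loop marker sums, given above, were also highest in replicate 2 of those labelled 14 days and lowest in replicate 3, and their part in these results was not tested.

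**Figure D3:**
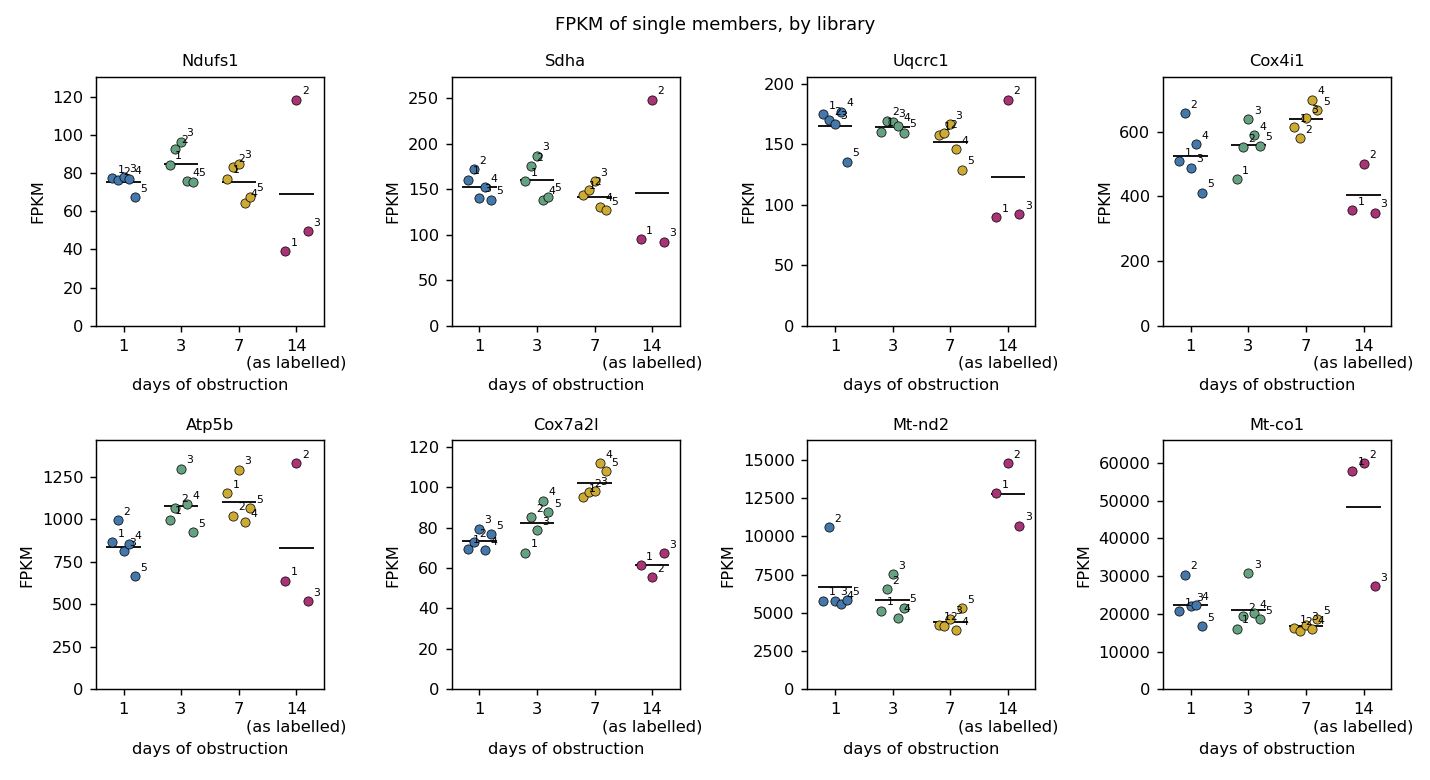
FPKM of 8 members by labelled days of obstruction, with 1 point per library, its replicate number, and lines at group means. In Ndufs1, Sdha, Uqcrc1 and Atp5b, replicate 2 labelled 14 days lies above every 7-day library and replicates 1 and 3 below, while Cox7a2l climbs to 7 days. Mt-nd2 in all 3 libraries labelled 14 days lies above the other 15, and Mt-co1 does so in replicates 1 and 2, with replicate 3 at 27342 below day 3 replicate 3 at 30821.

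Between 14 and 1 day, 21 of 96 members passed (21.9%, against 32.0% of genes), 20 higher and 1 lower (14.3% of genes lower). All 13 mitochondrial members rose, with a median log2 fold change of 1.44 and a range from 1.20 for Mt-nd2 to 2.24 for Mt-atp6, against 17.7% of genes called higher. FPKM lay wholly above 1 day for 7 of the 13 (2.65% of genes). In a fit of those 2 groups alone 6 of the 13 passed (5.45% of genes higher). The 7 nuclear members that rose were Ndufa7, Ndufb8, Ndufc2, Ndufs7 and the assembly factor Ndufaf3 of complex I, Atp5s, and Cox4i2, a Cox4 isoform known from lung and low oxygen. Ndufs7, a core iron-sulfur subunit, was at 54.7 to 69.5 FPKM at 1 day and at 70.9, 98.6 and 70.5 in the libraries labelled 14 days, without overlap. It rose by 0.69 ± 0.19 (SE, adjusted p = 0.0108, edgeR), which was lost without replicate 2 labelled 14 days. Of these 7, Atp5s alone passed under all 18 alternatives (0.87 ± 0.20, adjusted p = 0.00418), at 7.06 to 12.4 FPKM at 1 day and 14.4, 14.8 and 13.1 labelled 14 days. Cox6a2 had 71 counts over the 1-day libraries and 1 over those labelled 14 days, a ratio of 0.0313 (95% interval 0.000781 to 0.180).

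The nuclear median between 14 and 1 day was 0.19 with all libraries (0.06 over all genes) and -0.38 without replicate 2 labelled 14 days. In the latter fit 27 nuclear members passed as lower and 3 as higher (21.2% and 22.0% of genes), and the sign changed for 57 of 83 nuclear members. All 13 mitochondrial members were still above 0, and 12 of them passed as higher. On log2(FPKM+1) the nuclear median was -0.20 and that of all genes -0.19.

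**Figure D4:**
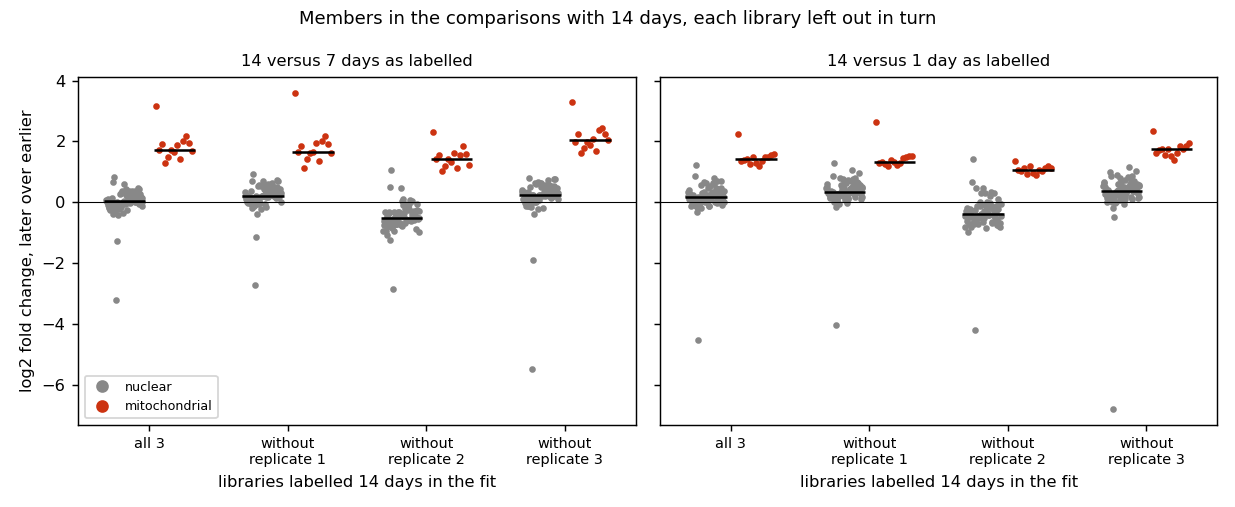
Log2 fold changes of nuclear (grey) and mitochondrial (red) members for 14 versus 7 days and 14 versus 1 day as labelled, with all 3 libraries labelled 14 days in the fit and with each left out in turn. Points are members and bars are medians. The grey median for 14 versus 7 days is 0.03 with all 3, 0.22 without replicate 1, -0.50 without replicate 2 and 0.23 without replicate 3, and the red medians of that comparison lie between 1.44 and 2.05.

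Mitochondrial messages are cut from long transcripts of either strand, so the balance between neighbours was examined. Mt-atp8 and Mt-atp6 overlap on the same message (MT, 7758 to 7961 and 7919 to 8599). Mt-atp6 per Mt-atp8 on the FPKM scale was 0.303 to 0.489 in 15 libraries, and 2.00 in day 1 replicate 3, 1.66 in replicate 2 and 1.63 in replicate 3 of those labelled 14 days. Mt-atp6 took 13.4%, 12.5% and 13.9% of mitochondrial member counts in those 3 libraries and 2.72 to 4.25% in the others. Mt-atp8 took 2.00 to 2.88% in all 18, so the 3 libraries stood apart in Mt-atp6 alone of the pair. These 3 libraries came from 2 labelled durations. Without replicate 2 labelled 14 days, and in the fit of 2 groups, the call for Mt-atp6 between 14 and 1 day was lost, and that between 14 and 7 days was kept under all 17 alternatives. Counting of overlapping genes is not described in the sources used here.

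Within complex I, Mt-nd2 per Mt-nd1, its upstream neighbour, was 0.993, 0.994, 0.944, 0.982 and 0.915 at 1 day on the FPKM scale and 0.714, 0.788, 0.695, 0.830 and 0.777 at 7 days. The ranges did not overlap, those at 3 days (0.737 to 0.966) overlapped with both, and those labelled 14 days were at 0.875, 0.875 and 0.988. Mt-co2 as a share of mitochondrial member counts went the other way. It was 7.15 to 10.5% at 1 day, 7.81 to 10.5% at 3 days, 10.7 to 13.9% at 7 days, and 10.1%, 7.89% and 7.00% in those labelled 14 days. Thus 7-day libraries were the highest in Mt-co2 and among the lowest in Mt-nd2 per Mt-nd1. Complex IV took 54.9 to 62.5% of mitochondrial member counts at 1 day, 57.9 to 63.6% at 3 days, 59.8 to 63.0% at 7 days, and 61.7%, 54.2% and 49.1% in those labelled 14 days. Complex V took 15.4%, 14.8% and 16.4% in the 3 libraries with high Mt-atp6 and 5.30 to 6.91% in the other 15.

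**Figure D5:**
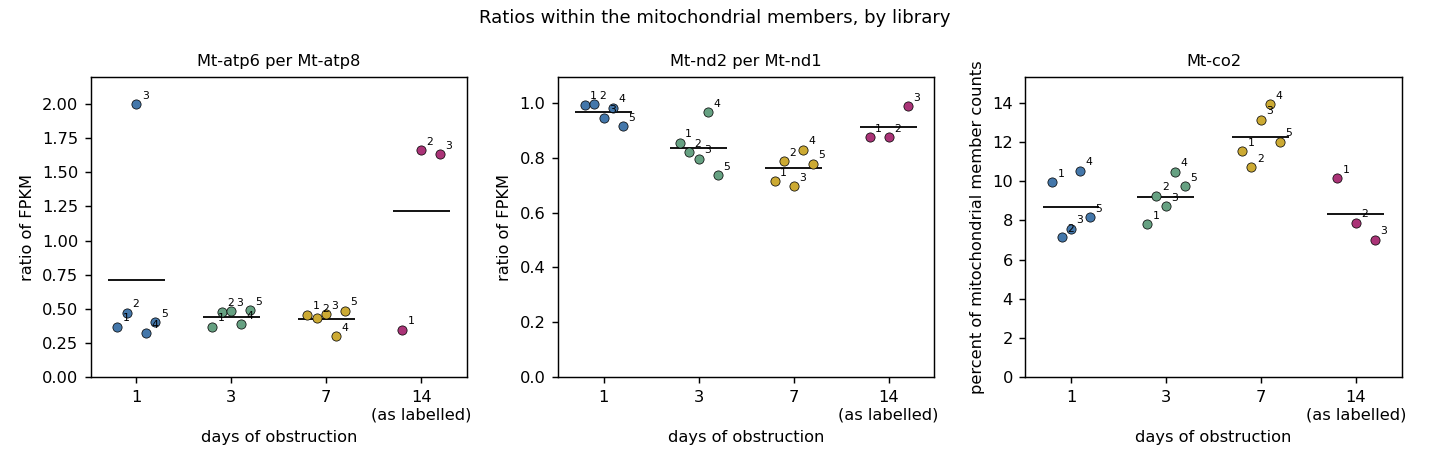
Mt-atp6 per Mt-atp8 (left) and Mt-nd2 per Mt-nd1 (middle) as ratios of FPKM, and Mt-co2 as percent of mitochondrial member counts (right), by labelled days of obstruction, 1 point per library with its replicate number and lines at group means. Mt-atp6 per Mt-atp8 is at 2.00, 1.66 and 1.63 in 3 libraries and at most 0.489 in the other 15.

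Tissue-specific isoforms stayed far below their common partners. Cox4i2 was at 0.486 to 3.38 FPKM across libraries against 350 to 698 for Cox4i1, Cox6a2 at 0 to 5.37 against 275 to 622 for Cox6a1, and Ndufa4l2 at 0.747 to 4.91 against 143 to 347 for Ndufa4. Cox8b, a heart and muscle isoform, had a single count in each of 2 libraries, both labelled 14 days, where Cox8a was at 332 and 873 FPKM. Rows named Cox6b1 and Cox7a2 are short loci (chromosome 2, 211337271 to 211337531, and chromosome 14, 52661966 to 52662217) that share their symbols with longer genes on chromosomes 1 and 8. The authors' counting could split reads between them, so their values (156 to 275 FPKM and 117 to 260) are uncertain.

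Outside the members, genes that build and regulate the chain were followed as lists. Of 12 nuclear regulators, 3 passed between 7 and 1 day, a share close to the 25.6% of all genes. Gabpa fell by 0.50 ± 0.10 (SE, adjusted p = 0.0025, edgeR), Ppara, a fatty acid oxidation regulator, fell by 1.16 ± 0.31 (adjusted p = 0.0129), and Gabpb1, the partner of Gabpa, rose by 0.36 ± 0.12 (adjusted p = 0.0366). Esrra, an orphan nuclear receptor that activates mitochondrial genes, was at 26.9 to 35.6 FPKM at 1 day, 40.1 to 46.8 at 3 days and 37.8 to 48.5 at 7 days, without overlap to 1 day, but did not pass (adjusted p = 0.133 and 0.0656). Its coactivator Ppargc1a was at 10.7 to 18.2 FPKM at 3 days and 5.89 to 10.7 at 7 days, just without overlap, and did not pass (-0.76 ± 0.31, adjusted p = 0.204). Nrf1 did not pass before 14 days, where it rose against 1 day (0.53 ± 0.16, adjusted p = 0.0183) at 12.4, 5.09 and 8.31 FPKM. In that comparison 2 of the 12 regulators were called higher, a share close to the 17.7% of all genes.

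Of 13 genes of mitochondrial transcription and RNA handling, 1 passed between 7 and 1 day (13.3% of all genes were called lower), Fastkd2, which fell by 0.52 ± 0.15. Tfam, which packages and transcribes mitochondrial DNA, and Polrmt, its RNA polymerase, did not pass in any comparison (Tfam 0.05 ± 0.12 and Polrmt -0.03 ± 0.14 between 14 and 7 days). Of 8 mitochondrial DNA replication genes, 3 fell between 7 and 1 day, again beside 13.3% of all genes. They were Polg, the DNA polymerase (-0.42 ± 0.11), Top1mt, the topoisomerase (-0.50 ± 0.14), and Rrm2b, a ribonucleotide reductase subunit (-1.16 ± 0.23). Rrm2b was higher again between 14 and 7 days (1.03 ± 0.26, adjusted p = 0.0055). Of 32 assembly factors outside the rule, 1 rose and 3 fell between 7 and 1 day, against 12.3% and 13.3% of all genes. Cox20, which helps mature Mt-co2 protein, rose by 0.49 ± 0.12 from 33.9 to 50.5 FPKM, and Coa3, a complex IV assembly factor, fell by 0.48 ± 0.16 from 125 to 94.8 FPKM, joined by Ttc19 and Acad9. Between 14 and 7 days 7 of the 32 rose, a share close to the 21.4% of all genes.

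Cycs, the mobile cytochrome c, was at 140, 829 and 129 FPKM in the libraries labelled 14 days and at 317 to 523 in the other 15, so that replicate 2 was above and replicates 1 and 3 below all of them. Atpif1, the inhibitor of ATP synthase, was at 260 ± 41.4 FPKM at 1 day (n = 5) and at 115, 161 and 94.5 labelled 14 days, and fell by 0.78 ± 0.23 (adjusted p = 0.0186). Slc25a4, the muscle-type carrier of ATP and ADP, fell between 14 and 7 days by 0.75 ± 0.23 (adjusted p = 0.0172), while Slc25a5 did not pass (0.02 ± 0.33).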

How the data were processed

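Read counts per gene were deposited by the authors as whole numbers, and FPKM values beside them, per the file headers. FPKM divides the count by gene length and by the library's total, which includes mitochondrial counts. The submitters' processing notes name fastp 0.19.7 and HISAT2 2.0.4. For the read counter, for strand handling and for the assembly behind the coordinates, nothing was stated in the labels or headers. RNA was selected with oligo-dT beads, per the labels' protocols. Groups follow the labels.

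Counts of all 18 libraries were fitted in 1 model with edgeR 4.0.16 (R 4.3.3; filterByExpr with a minimum count of 10 and a total of 15, TMM scaling, quasi-likelihood test), and p-values were Benjamini-Hochberg adjusted over 14511 genes, with calls at an adjusted p under 0.05. Alternatives used DESeq2 1.42.0, limma 3.58.1 on log2(FPKM+1) and log2(FPKM+0.1), no filter, other scalings, the compared groups alone, a replicate block, and libraries left out. For comparisons with 1 day, the counts of alternatives hold the fit without day 1 replicate 5 in duplicate. Where a symbol had several rows, the row with the most counts was used. Named genes were the 13 mitochondrial genes, fixed subunits and isoform pairs, and called members with the largest changes. Others named were chosen after their values were seen. Members and lists were chosen with earlier results of these data known. The scripts were tested on simulated data. Promoters came from RefSeq (GRCr8).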

Additional observations from a re-analysis of the deposited data

Results flagged for a closer look

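In groups of 5 libraries, 27 of 186 highest or lowest values stood further from the rest than Dixon's 95% critical value of 0.71 allows. Chance alone sets apart about 1 in 20 groups. The 3 libraries labelled 14 days are too few for this check. Values are FPKM, with the range of the other 4 libraries of the group.

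Mitochondrial members stood high in day 1 replicate 2, with Mt-nd1 at 10654 against 5650 to 6357, Mt-nd2 at 10592 against 5548 to 5815 and Mt-nd4l at 5694 against 3197 to 3672. In the same library Mt-cytb was at 12846 against 6749 to 7856, Mt-cox3 at 25966 against 15236 to 17019 and the nuclear Cox8a at 574 against 352 to 413. Its mitochondrial complex I members took 3.38% of counts (1.84 to 2.06% in the others), and its complex III member 1.47% (0.771 to 0.898%). Day 3 replicate 3 was also high, with Mt-nd4l at 5490 against 2803 to 3216, Mt-nd5 at 3039 against 1484 to 1878, Mt-cytb at 13536 against 6568 to 8366 and Mt-co1 at 30821 against 16073 to 20165. There the complex III member took 1.55% of counts (0.751 to 0.956%), and Ucp2, an uncoupling protein, was low at 67.8 against 122 to 136. Mt-atp6 was at 19235 against 4143 to 7799 in day 1 replicate 3.

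Nuclear members stood low in day 1 replicate 5, with Ndufs1 at 67.3 against 76.3 to 77.7, Ndufv1 at 91.7 against 115 to 120 and Uqcrc1 at 136 against 167 to 177, while Cox4i2 was high at 2.22 against 0.486 to 0.903. Complex IV members stood low in day 3 replicate 1, with Cox5a at 235 against 279 to 295, Cox6a1 at 384 against 495 to 540 and Cox6b1 at 176 against 250 to 275. Nuclear complex IV members together took 0.155% of its counts (0.204 to 0.22% in the others). Single values were Ndufb8 at 189 against 137 to 150 in day 3 replicate 5, Cox6a2 at 4.15 against 0.61 to 1.35 in day 3 replicate 4, Cox6a1 at 451 against 501 to 504 in day 7 replicate 2 and Cycs at 461 against 350 to 369 in day 7 replicate 3.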

How the results depend on the processing

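No member called in the main fit of all 18 libraries changed sign under any alternative run. Of 746 refits of those members, 673 kept the call and 73 lost it, counting the fit without day 1 replicate 5 in duplicate. This does not cover nuclear members that were not called there. Without replicate 2 labelled 14 days the sign changed for 42 of 83 nuclear members between 14 and 7 days. Between 14 and 1 day it changed for 57 of 83. Of members called between 3 and 1 day (0), the fit of 2 groups gave 1, leaving out the libraries labelled 14 days gave 3, and leaving out day 1 replicate 5 as well, chosen after seeing the data, gave 1. Between 7 and 3 days (0), DESeq2, the fit of 2 groups and the fit without those labelled 14 days each gave 1. Between 7 and 1 day (3), DESeq2 gave 5, the fit of 2 groups 14, limma on log2(FPKM+1) 9 and on log2(FPKM+0.1) 7, leaving out day 1 replicate 5 gave 5, the libraries labelled 14 days 14, and both 15. Between 14 and 7 days (18), both limma fits gave 40 and keeping only replicate 2 labelled 14 days gave 63. Between 14 and 1 day (21), the fit of 2 groups gave 8 and keeping only replicate 2 gave 72. Leaving out 1 library at a time gave 0 to 0 for the first 2 comparisons, 2 to 5 between 7 and 1 day, 17 to 58 between 14 and 7 days and 18 to 42 between 14 and 1 day, the highest of the last 2 without replicate 2 labelled 14 days. With mitochondrial counts left out of the total, mitochondrial members equalled 28.4% of the remaining counts at 14 days, a total that does not contain them. The nuclear share was then 1.32% at 3 days and 1.33% at 7 days. The nuclear share at 7 days was 1.14% with TMM scaling and 1.32% without the 20 most abundant nuclear genes. These shares differ by the total used alone, and the cause of the shifts in calls was not tested.

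With the replicate number as a block, 0, 0, 2, 19 and 20 members were called in the 5 comparisons in the order above. Same-numbered libraries did not consistently deviate together (median r 0.04, from -0.42 to 0.39, 10 of 24 pairs over 0.1). Differently numbered libraries of unlike groups had a median r of -0.03, so the numbers do not show a clear pairing. Depth limits the rare isoforms: Cox6b2, Cox6a2 and Cox4i2 had 0 to 28 counts per library.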
